A study of Mus musculus with 8 samples.

Results

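Annulus fibrosus and tendon genes were examined in whole spines of mouse embryos: the regulators Scx and Mkx, the membrane glycoprotein Tnmd, the proteoglycans Fmod, Dcn, Lum and Kera, the secreted matrix proteins Thbs4 and Cilp, and Itgbl1. These 10 genes were taken by name out of 27179 genes in the table of read counts, and all 10 passed the filter on low counts that left 18104 genes for testing. The spines came from embryos at E18.5 that were wild type (WT) or carried the Pax1-Enh knockout (KO), a deletion at Pax1 that the title of the series describes as a sex-associated genomic region linked to adolescent idiopathic scoliosis. There were 4 groups of 2 libraries each: male WT, male KO, female WT and female KO. Sex is taken from the sample titles and was not checked here against sex-specific genes. The sources used here give neither the strain, nor the zygosity, nor the coordinates of the deletion. Nothing in the labels says that the libraries of a group are separate embryos, and each p-value therefore reflects only the spread of these samples, which may be technical. The question the design poses for these genes is whether their mRNA levels differed between KO and WT spines, within each sex and over both.

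The annulus fibrosus is the fibrous ring of the intervertebral disc, and its outer lamellae resemble tendon and ligament in structure and in the genes they use. Scleraxis (Scx), a basic helix-loop-helix transcription factor, marks tendon progenitors, and Mohawk (Mkx), a homeobox factor, is needed for mature tendon and annulus collagen fibrils. Small leucine-rich proteoglycans such as fibromodulin, decorin, lumican and keratocan bind collagen fibrils and limit their width. Vertebral cartilage and the inner annulus derive from sclerotome, the compartment in which Pax1 acts, and the tendon lineage of the trunk arises beside it in the syndetome.

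Library totals ran from 35181518 to 67575728 counts, and all 4 KO libraries (59722279 or more) were deeper than all 4 WT libraries (48021848 or fewer), so depth and genotype cannot be told apart. The 10 genes took 0.106% to 0.323% of the counts of a library. Levels are given as CPM, read counts scaled to a common library size with edgeR's TMM factors. A count of 3 equals 0.0392 to 0.0831 CPM, and the lowest value of any member in any library was 5.85 CPM. Mitochondrial genes took 18.3% and 20.9% of counts in male WT, 15.6% in male KO replicate 2 and 13.6% in female KO replicate 1, against 4.56% to 7.27% in the other 4 libraries, which are both female WT libraries, male KO replicate 1 and female KO replicate 2. This split does not follow genotype, but within WT it is the split between the sexes. Pax1 itself differed between KO and WT by 0.24 on the log2 scale over both sexes and did not pass the test. Among cell type markers, the summed level of 7 cartilage markers was 5807 to 11434 CPM in WT and 11210 to 26885 CPM in KO, that of 8 skeletal muscle markers 12930 to 28478 CPM in WT and 20281 to 35688 CPM in KO, and that of 7 adipocyte markers 749 to 4990 CPM in WT and 226 to 466 CPM in KO. The cartilage sum was mostly Col2a1 (3526 to 22474 CPM), and the adipocyte sum mostly Fabp4 (186 to 4163 CPM).

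Per kilobase of transcript, the proteoglycans Dcn, Lum and Fmod led, and Kera came sixth. Dcn stood at 339 ± 172 CPM per kb (SD over the 8 libraries), Lum at 284 ± 173, Fmod at 149 ± 47.7 and Tnmd at 116 ± 82.9 CPM per kb. Thbs4 followed at 34.3 ± 11.4, Kera at 20.05 ± 17.1 and Scx at 17.9 ± 3.56 CPM per kb. The lowest were Itgbl1 at 5.98 ± 2.13, Cilp at 5.96 ± 1.62 and Mkx at 2.92 ± 0.82 CPM per kb. Only some neighbours in this order kept their places. Tnmd exceeded Thbs4, Scx exceeded Itgbl1, and Cilp exceeded Mkx in 8 of 8 libraries, whereas Kera exceeded Scx and Itgbl1 exceeded Cilp in 4 of 8, Lum exceeded Fmod in 5 and Fmod exceeded Tnmd in 6. Dcn exceeded Lum, and Thbs4 exceeded Kera, in 7 of 8. Lengths are those of the GENCODE M21 transcript linked to each gene's RefSeq record, and they set this order but no comparison between libraries. Across 16075 genes, the KO minus WT log2 difference was larger for longer transcripts (Spearman 0.293 in males, 0.201 in females and 0.424 over both sexes, a description across genes, which are not independent replicates). Transcripts of 5 members, Mkx, Thbs4, Fmod, Cilp and Itgbl1, are longer than the median of 2996 nt, and those of the other 5 are shorter.

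**Figure D1:**
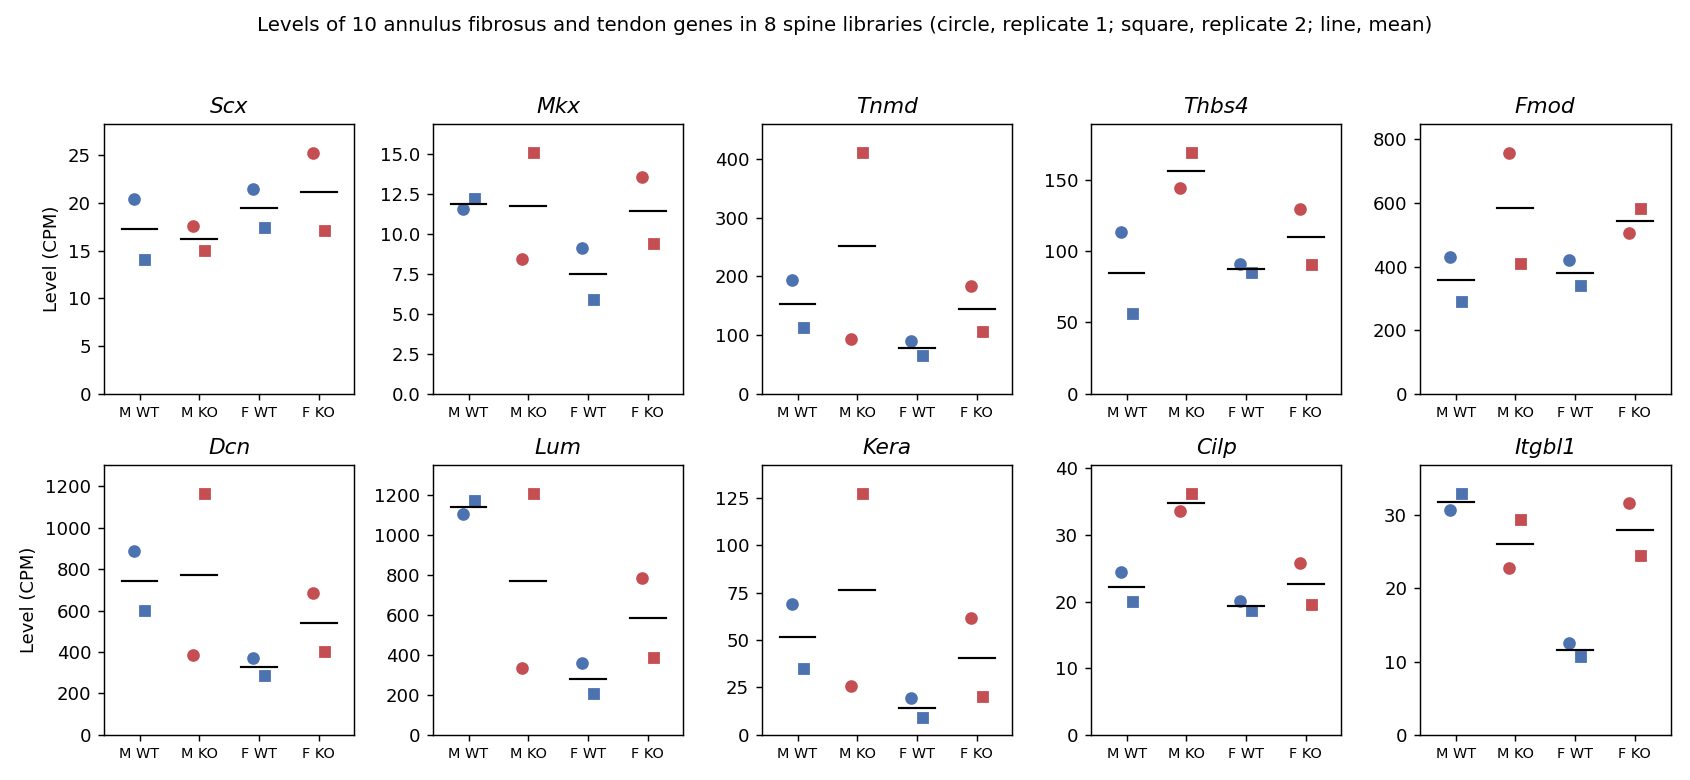
Level of each of the 10 genes in CPM (vertical axes from 0) in male (M) and female (F) WT and KO libraries, with a circle for replicate 1, a square for replicate 2 and a line at the mean of the 2. Kera runs from 8.84 to 127 CPM and Scx from 14.05 to 25.3 CPM over the 8 libraries.

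No member passed the edgeR test between KO and WT, and 1 passed in DESeq2. With edgeR's quasi-likelihood test and Benjamini-Hochberg adjustment over 18104 genes at a threshold of 0.05, 0 of 10 members were called in males, in females and over both sexes, where 0.0% of all tested genes were called in each. DESeq2 called 0 members in males and over both sexes, where it called 2.66% and 0.779% of all genes, and 1 member in females, Itgbl1, where it called 0.795%. At an unadjusted p under 0.05, edgeR had Thbs4 and Cilp higher in male KO (2 members, against 7.53% of all genes), Itgbl1 higher in female KO (1 member, against 4.53%) and Thbs4, Fmod and Cilp higher in KO over both sexes (3 members, against 2.84%). No member was lower at that level in males, in females or over both, against 7.29%, 4.74% and 3.99% of all genes.

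The signs leaned one way, in a list chosen with earlier results of these data known, so the lean was not tested. Over both sexes all 10 members had a positive KO minus WT difference, with a median of 0.47 on the log2 scale beside -0.01 for all tested genes, of which 48.9% were positive. Markers of some other tissues leaned the same way, with positive values for 7 of 7 cartilage markers (median 0.74), 8 of 8 muscle markers (0.54) and 7 of 7 osteoblast markers (0.39). So did 5 of 6 loose connective tissue fibroblast markers (0.35) and the 1 tested cornea marker (0.64). Others did not, with positive values for 0 of 7 adipocyte (median -3.65), 0 of 4 epidermal (-0.51) and 1 of 4 tested notochord markers (-0.09). Meningeal markers had 2 of 5 positive (-0.04) and neuronal markers 2 of 4 (-0.001). The part of these tissues in the members' values was not tested. In females all 10 members were positive (median 0.67, all genes 0.03), and in males 6 were (median 0.31, all genes -0.06). Without male KO replicate 2, the highest library for 7 of the 10 members, the male median was -0.48. The median over both sexes ran from 0.35 to 0.64 when each library was left out in turn. In bulk tissue, more cells of a type and more RNA per cell cannot be told apart. No member had every KO library above every WT library, and none had every KO library below, where 1.68% and 1.63% of all tested genes did. Within females 7 members had both KO libraries above both WT libraries, namely Mkx, Tnmd, Fmod, Dcn, Lum, Kera and Itgbl1, against 25.9% of all tested genes. Within males only Thbs4 and Cilp did (19.7% of all genes), and Itgbl1 had both KO libraries below (23.9%).

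**Figure D2:**
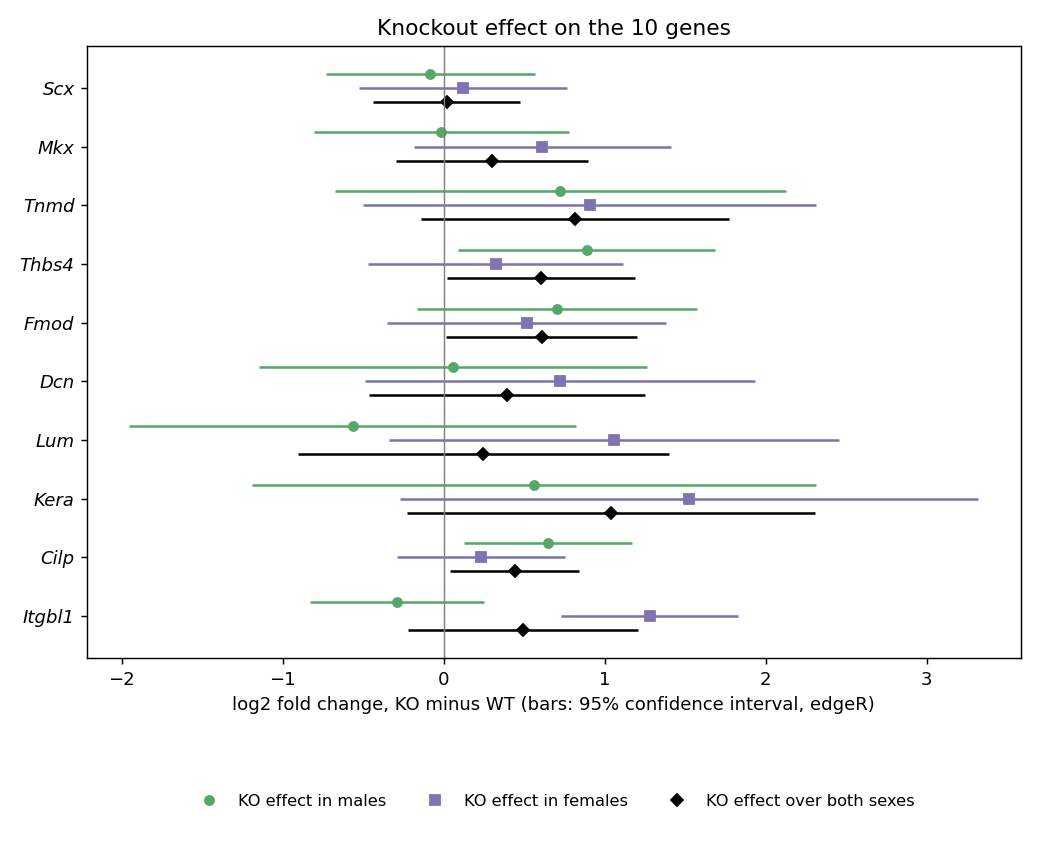
Difference between KO and WT for each gene as a log2 fold change (horizontal axis), in males (green circles), in females (violet squares) and over both sexes (black diamonds), with 95% confidence intervals from edgeR. All 10 diamonds lie above 0, and the intervals of Thbs4, Fmod and Cilp over both sexes, of Thbs4 and Cilp in males and of Itgbl1 in females do not reach 0 before adjustment for the number of genes.

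Scx (Entrez gene 20289, mm10 chromosome 15, 76457411 to 76459468, plus strand) lies inside Bop1, which runs on the opposite strand and shares 0 exon bases with it. The sources used here do not say whether the counting used strand, so unspliced Bop1 reads cannot be separated from Scx reads. Scx stood at 20.4 and 14.05 CPM in male WT against 17.6 and 14.95 in male KO, with 21.5 and 17.4 in female WT against 25.3 and 17.1 in female KO. The ranges of all 4 groups overlapped. Its spread over the 8 libraries, 1.80-fold from lowest to highest, was the narrowest of the 10 genes. The KO minus WT log2 difference was 0.02 over both sexes (95% interval -0.44 to 0.48, edgeR adjusted p = 0.996), an interval that leaves room for a change of up to 1.39-fold in the higher direction and down to 0.738-fold in the lower. Its sign turned when any of 4 single libraries was left out (range -0.12 to 0.16).

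Mkx (Entrez gene 210719, chromosome 18, 6934966 to 7004779, minus strand) shares 201 exon bases with AC148004.2, a gene model on the same strand whose reads could be divided between the pair. Mkx was measured at 11.6 and 12.2 CPM in male WT against 8.47 and 15.1 in male KO, with 9.13 and 5.85 in female WT against 13.6 and 9.38 in female KO. In males the KO pair straddled the WT pair, and in females both KO libraries lay above both WT libraries. The log2 difference was -0.01 (SE 0.35) in males, 0.61 (SE 0.35) in females and 0.30 (SE 0.27) over both, with edgeR adjusted p-values of 0.987, 0.561 and 0.910.

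Tenomodulin (Tnmd, Entrez gene 64103, chromosome X, 133851008 to 133865577, plus strand), a membrane glycoprotein of mature tendon and ligament cells, gave 193 and 112 CPM in male WT against 93.9 and 410.3 in male KO, with 90.4 and 63.6 in female WT against 183 and 105 in female KO. Male KO held both the highest library of the 8 and one below both male WT libraries, and the female KO libraries lay above the female WT libraries. The difference over both sexes was 0.82 (SE 0.42, edgeR adjusted p = 0.760). In males it was 0.73 (SE 0.62, edgeR adjusted p = 0.573), and it was -0.70 without male KO replicate 2. In females it was 0.91 (SE 0.62, edgeR adjusted p = 0.600).

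Fibromodulin (Fmod, Entrez gene 14264, chromosome 1, 134037254 to 134048280, plus strand) binds collagen I fibrils and guides their crosslinking. It stood at 429 and 287 CPM in male WT against 758 and 409 in male KO, with 422 and 339 in female WT against 507 and 581 in female KO. Of the 4 KO libraries, 3 lay above all 4 WT libraries, and male KO replicate 2 lay below 2 WT libraries. The log2 difference was 0.70 (SE 0.38) in males, 0.52 (SE 0.38) in females and 0.61 (SE 0.26, unadjusted p = 0.0448) over both, and the edgeR adjusted p over both was 0.728. Fmod was the only member whose mean was lower in the 4 libraries with over 10% mitochondrial counts than in the other 4, at 0.777 times their level.

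The other 3 proteoglycans sit side by side on chromosome 10, all on the plus strand. Dcn (Entrez gene 13179) runs from 97479500 to 97518163, Lum (17022) from 97565501 to 97572703 and Kera (16545) from 97606962 to 97613688, with 47.3 kb between Dcn and Lum and 34.3 kb between Lum and Kera. Decorin is a broadly expressed fibril-binding proteoglycan, lumican is shared by skin, tendon and cornea, and keratocan is best known from the cornea and is also made in tendon. Dcn gave 887 and 596 CPM in male WT against 385 and 1162 in male KO, with 369 and 286 in female WT against 683 and 399 in female KO. Lum gave 1108 and 1173 CPM in male WT against 335 and 1207 in male KO, with 359 and 204 in female WT against 788 and 386 in female KO. Kera gave 68.7 and 34.6 CPM in male WT against 25.7 and 127 in male KO, with 19.5 and 8.84 in female WT against 61.7 and 19.8 in female KO. For each of the 3, male KO replicate 2 was the highest and female WT replicate 2 the lowest of the 8 libraries, and both female WT libraries lay below both female KO libraries. Male KO overlapped male WT for all 3, because male KO replicate 1 fell below both WT libraries and replicate 2 above them.

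The differences of these 3 genes carried wide errors. Over both sexes they were 0.39 (SE 0.38) for Dcn, 0.25 (SE 0.51) for Lum and 1.04 (SE 0.56) for Kera, with edgeR adjusted p-values of 0.928, 0.984 and 0.772. In females they were 0.72 (SE 0.53), 1.06 (SE 0.61) and 1.52 (SE 0.79), and in males 0.06 (SE 0.53), -0.57 (SE 0.61) and 0.56 (SE 0.77). The smallest edgeR adjusted p among these 6 values was 0.548, for Kera in females. The male values rest on 1 library: without male KO replicate 2 they were -0.94 for Dcn, -1.76 for Lum and -1.003 for Kera, and without male KO replicate 1 the Lum value was 0.08. The Lum value over both sexes turned to -0.14 without female KO replicate 1 and to -0.07 without female WT replicate 2. Cornea markers were near 0 in these spines, since Krt12 and Aldh3a1 together reached at most 1.30 CPM in any library.

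Thrombospondin 4 (Thbs4, Entrez gene 21828, chromosome 13, 92751586 to 92794818, minus strand), a pentameric matrix glycoprotein of tendon and muscle attachments, stood at 113 and 55.6 CPM in male WT against 144 and 169 in male KO, with 91.02 and 84.5 in female WT against 129 and 90.3 in female KO. Both male KO libraries and female KO replicate 1 lay above all 4 WT libraries, and female KO replicate 2 lay between them. The log2 difference was 0.89 (SE 0.35, unadjusted p = 0.0327, edgeR adjusted p = 0.309) in males and 0.32 (SE 0.35, edgeR adjusted p = 0.718) in females. Over both sexes it was 0.61 (SE 0.26, unadjusted p = 0.0438, edgeR adjusted p = 0.728).

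Cartilage intermediate layer protein (Cilp, Entrez gene 214425, chromosome 9, 65265180 to 65280614, plus strand), a matrix glycoprotein of cartilage and disc, gave 24.5 and 19.9 CPM in male WT against 33.5 and 36.1 in male KO, with 20.02 and 18.6 in female WT against 25.8 and 19.5 in female KO. It had the same order as Thbs4: both male KO libraries and female KO replicate 1 lay above all WT libraries, and female KO replicate 2 lay among them. The log2 difference was 0.65 (SE 0.23, unadjusted p = 0.0211, edgeR adjusted p = 0.288) in males and 0.23 (SE 0.23, edgeR adjusted p = 0.698) in females. Over both sexes it was 0.44 (SE 0.18, unadjusted p = 0.0349, edgeR adjusted p = 0.718). Cilp is also made in cartilage. The 7 cartilage markers, mostly Col2a1, summed to 5807 to 11434 CPM in WT and 11210 to 26885 CPM in KO. Their part in the Cilp difference was not tested.

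The promoters of the 3 members with an unadjusted p under 0.05 over both sexes are shown because Scx, like other basic helix-loop-helix factors, binds E-boxes. The sequences are the 250 bases before the start of each gene in the RefSeq promoter table (GRCm38.p6, the mm10 build), which had an entry for 6 of the 10 members. They are printed 5′ to 3′ on the strand of the gene, and capitals mark CANNTG, the E-box core, which reads the same on both strands. Fmod is chr1:134037004-134037253 on the plus strand, Cilp is chr9:65264930-65265179 on the plus strand, and Thbs4 is chr13:92794819-92795068 on the minus strand. None of the 3 stretches overlaps an annotated exon.
Fmod: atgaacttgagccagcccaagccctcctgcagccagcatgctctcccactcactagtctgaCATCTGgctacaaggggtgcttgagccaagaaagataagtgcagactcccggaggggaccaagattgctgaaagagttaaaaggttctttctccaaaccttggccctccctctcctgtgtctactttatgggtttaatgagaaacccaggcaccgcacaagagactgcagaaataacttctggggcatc
Cilp: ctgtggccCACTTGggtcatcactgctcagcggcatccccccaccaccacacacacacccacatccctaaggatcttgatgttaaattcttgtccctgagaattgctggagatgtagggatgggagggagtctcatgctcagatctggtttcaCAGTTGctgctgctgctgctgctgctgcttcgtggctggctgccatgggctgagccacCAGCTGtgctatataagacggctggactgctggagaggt
Thbs4: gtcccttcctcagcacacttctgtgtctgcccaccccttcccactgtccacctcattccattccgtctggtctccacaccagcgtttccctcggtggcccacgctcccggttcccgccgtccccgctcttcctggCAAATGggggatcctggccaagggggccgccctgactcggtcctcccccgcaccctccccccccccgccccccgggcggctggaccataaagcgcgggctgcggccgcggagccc

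Cilp has 3 such cores, whose first bases lie 242, 97 and 39 bases before the start. Thbs4 has 1, at 115 bases, and Fmod has 1, at 189 bases. Of 32851 promoters of the same length in the table, 66.2% hold at least 1 such core, 31.8% at least 2 and 12.2% at least 3, so 1 match is the common case. Among the other members with an entry, Itgbl1 has 2 cores and Kera and Tnmd have 0. Their stretches are less comparable, because 250 bases for Kera, 169 for Itgbl1 and 28 for Tnmd are annotated exon. Those of Kera and Itgbl1 also reach into the gene spans given in the text. A match describes the letters and is not a binding site.

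Itgbl1 (Entrez gene 223272, chromosome 14, 123659937 to 123978865, plus strand), a secreted protein built of the EGF-like repeats found in integrin beta chains, overlaps Fgf14 on the opposite strand with 0 shared exon bases. It stood at 30.7 and 32.8 CPM in male WT against 22.7 and 29.4 in male KO, with 12.5 and 10.6 in female WT against 31.6 and 24.4 in female KO. The female WT pair was the lowest of the 8 libraries, and the male WT pair was at the top with female KO replicate 1 between them. In females the difference was 1.28 (SE 0.24, 2.43-fold, unadjusted p = 5.84e-04), and the edgeR adjusted p was 0.532 although the DESeq2 adjusted p was 0.00717. In males it was -0.29 (SE 0.24, edgeR adjusted p = 0.563). The female minus male difference of the 2 effects was 1.57 (SE 0.34, unadjusted p = 0.00139), with an adjusted p of 0.243 in edgeR and 0.0229 in DESeq2. This interaction had 1 member at an unadjusted p under 0.05 in the higher direction, against 9.61% of all tested genes, and 0 in the lower direction, against 7.13%. For this interaction edgeR called 0.0% of genes, and DESeq2 called 2.0% and among the members Itgbl1 alone. For Lum the interaction was 1.63 (SE 0.86, edgeR adjusted p = 0.357), and for the other 8 members the edgeR adjusted p lay between 0.506 and 0.924.

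The interaction holds the WT sex difference with its sign reversed, so for Itgbl1 these values are not independent of each other. Mean Itgbl1 levels were 31.8 CPM in male WT and 11.5 in female WT, against 26.0 in male KO and 28.0 in female KO. Female WT minus male WT was -1.46 (SE 0.24, unadjusted p = 2.39e-04) for Itgbl1, -2.02 (SE 0.63, unadjusted p = 0.0113) for Lum and -1.87 (SE 0.80, unadjusted p = 0.0450) for Kera, with edgeR adjusted p-values of 0.102, 0.1201 and 0.176. The threshold was passed by 0 members in edgeR, where 0.00552% of all genes (1 gene, lower in female WT, and 0 higher) passed. In DESeq2 it was passed by Lum and Itgbl1 (adjusted p = 0.00693 and 2.55e-04), where 11.6% of all genes passed. Both female WT libraries lay below both male WT libraries for 6 members, Mkx, Tnmd, Dcn, Lum, Kera and Itgbl1, against 35.1% of all genes, and above for 0, against 31.0%. At an unadjusted p under 0.05 the 3 members just named were lower, against 15.7% of all genes, and 0 were higher, against 11.6%. Both female WT libraries lay below all other 6 libraries for 4 members, Tnmd, Dcn, Kera and Itgbl1, against 11.4% of all genes. The remaining 4 members had WT sex differences between -0.20 (Cilp) and 0.17 (Scx). Since both male WT libraries had over 10% mitochondrial counts and both female WT libraries under 10%, sex and mitochondrial share cannot be told apart within WT.

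The same 6 members separated the libraries by mitochondrial share, which in part repeats the WT comparison. Male WT lies above 10% and female WT below, so any gene with this full separation also has male WT above female WT. For Mkx, Tnmd, Dcn, Lum, Kera and Itgbl1 each of the 4 libraries above 10% mitochondrial counts exceeded each of the 4 below, where 14.5% of all tested genes did so. No member had the opposite order, against 11.1% of all genes. The means above and below were 73.0 ± 38.8 and 18.46 ± 7.02 CPM for Kera (SD, 4 libraries each, 3.95-fold), 1069 ± 192 and 321 ± 80.8 CPM for Lum (3.33-fold), and 225 ± 129 and 88.3 ± 17.6 CPM for Tnmd (2.54-fold). Dcn was 2.31-fold, Itgbl1 1.77-fold and Mkx 1.60-fold higher above 10%. Thbs4, Cilp and Scx were at 1.14, 1.16 and 1.02 times. These 2 sets of libraries were defined from the data and are not groups of the study, and both KO groups have 1 library in each.

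**Figure D3:**
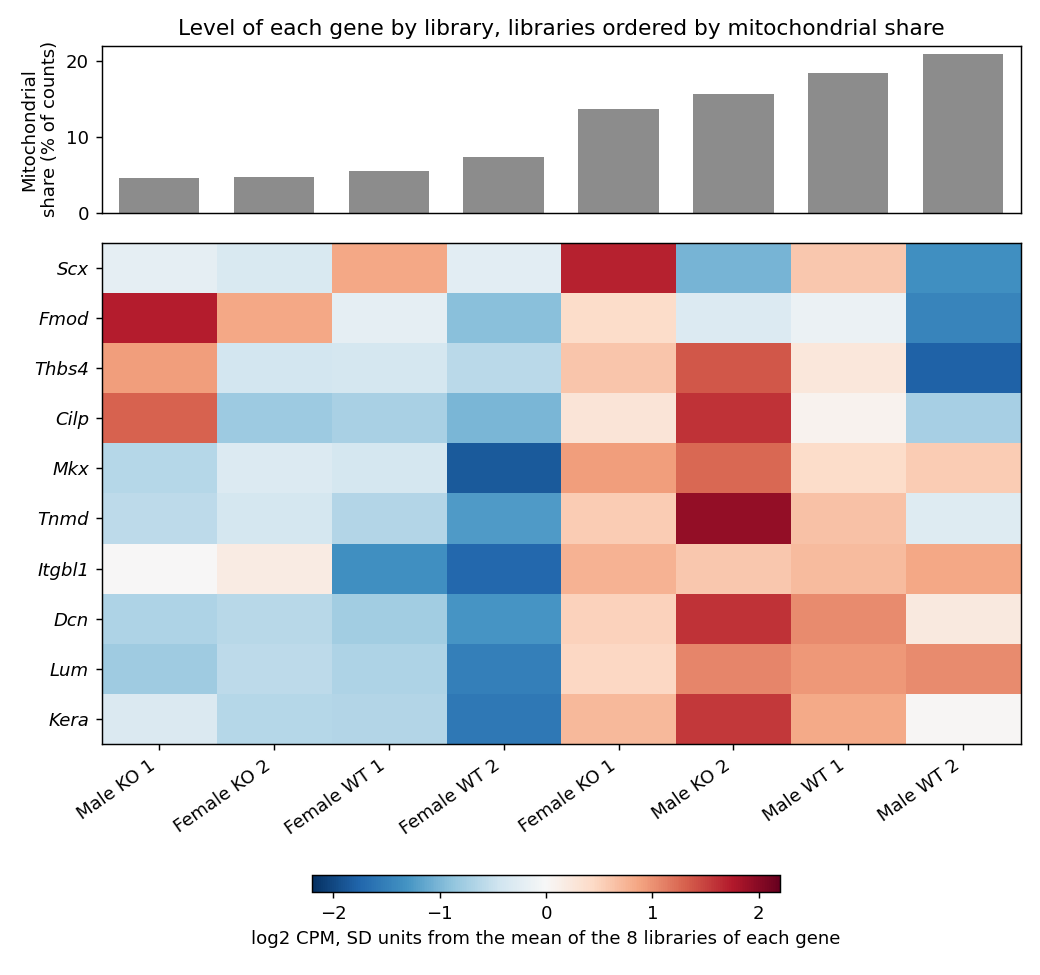
Top, share of counts from mitochondrial genes in each library (percent), with libraries ordered by it. Bottom, log2 CPM of each gene as distance from its own mean over the 8 libraries in SD units (red above, blue below). Mkx, Tnmd, Itgbl1, Dcn, Lum and Kera are higher in all 4 libraries on the right, from 13.6% upwards, than in the 4 on the left.

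Within the libraries above 10%, KO (male replicate 2 and female replicate 1) exceeded male WT in every library for 3 members, Mkx, Thbs4 and Cilp (17.4% of all genes), and was below in every library for 0 (23.0%). Within the libraries below 10%, KO (male replicate 1 and female replicate 2) exceeded female WT for 5 members, Tnmd, Fmod, Dcn, Kera and Itgbl1 (26.2%), and was below for 0 (26.1%). In these 2 comparisons KO is set against WT of 1 sex only. With the mitochondrial class as a further term in the fit over both sexes, an analysis added after the data were seen, the median KO difference of the members was 0.47, and edgeR called 0 of them. Both classes hold as many WT as KO libraries, so the median had little room to change. Its likeness to the value without the term is therefore no check on mitochondrial share. The value was 0.59 (SE 0.21) for Fmod, 0.60 for Thbs4, 0.44 for Cilp, 0.49 for Itgbl1 and 0.74 for Kera, 5 members with an unadjusted p under 0.05, all higher, against 5.24% of all genes higher and 7.39% lower in that fit. It was 0.08 for Lum, 0.28 for Dcn and 0.02 for Scx. In the libraries above 10% alone, Itgbl1 differed by -0.01 and Lum by -0.15, and in those below 10% alone Itgbl1 differed by 1.01 with an edgeR adjusted p of 0.213.

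The likeness of the members over the 8 libraries was graded. Pearson's r of log2 CPM, a description over 8 libraries that share their depth and mitochondrial classes, was 0.98 for Dcn and Kera, 0.93 for Dcn and Lum and 0.89 for Lum and Kera. Outside chromosome 10, Tnmd had r of 0.96 with both Dcn and Kera, and Mkx 0.93 with Kera, so the neighbours were not alone in this likeness. Thbs4 and Cilp had r of 0.87 with each other. Cilp had 0.69 with Kera and 0.68 with Tnmd, no less than the 0.68 of Tnmd with Itgbl1, and Thbs4 had 0.61 with Tnmd. Scx had r between -0.15 and 0.33 with the other 9 members, and Fmod had -0.30 with Lum and 0.61 with Thbs4. Over all 45 pairs the median was 0.49 and 36 were positive. The tested genes most like the mean of the 10 members were 4930511M06Rik (r = 0.98), 9530091C08Rik, Lpar1, Ptprq and Clcc1 (r = 0.96 each), of which Lpar1, a receptor for lysophosphatidic acid, and Clcc1 exceeded 20 CPM in every library.

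**Figure D4:**
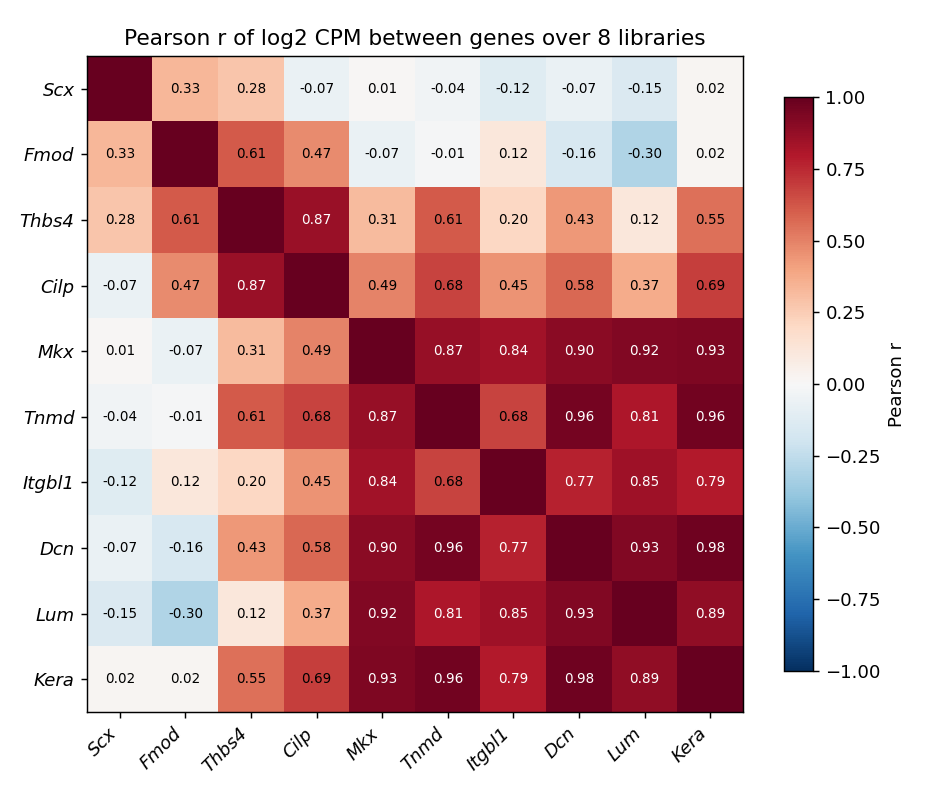
Pearson's r of log2 CPM over the 8 libraries for each pair of the 10 genes (colour from -1, blue, to 1, red, with the value in each cell). Pairs among Mkx, Tnmd, Itgbl1, Dcn, Lum and Kera have r from 0.68 to 0.98, Cilp reaches 0.69 with Kera, and Scx has no r above 0.33.

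Other genes of the same tissues were read from lists of small leucine-rich proteoglycans, tendon collagens, matrix and crosslinking genes, tendon signals and homologs of the members. In edgeR 0 genes of these 5 lists passed the threshold in males, in females or over both sexes. DESeq2 called 8 of the 73 tested list genes in males, all higher, against 2.66% of all genes, 1 in females (0.795%) and 2 over both (0.779%), again all higher. Over both sexes positive values were held by 10 of 13 other proteoglycans (median 0.25), 10 of 11 collagens (median 0.50), 21 of 22 matrix genes (median 0.45), 10 of the 16 tested signals (median 0.20) and 7 of 11 homologs (median 0.27), beside a median of -0.01 for all genes. In males and in females the medians were 1.06 and 0.22 for collagens, and 0.33 and -0.14 for signals. They were 0.35 and 0.25 for the other proteoglycans, 0.36 and 0.40 for matrix genes, and 0.27 and 0.27 for homologs. For all genes they were -0.06 and 0.03. Fgf4, Fgf8 and Gdf7 were too low to be tested.

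The proteoglycan with the smallest p over both sexes was chondroadherin (Chad), a cartilage protein of the family. Chad gave 158 and 102 CPM in male WT against 392 and 214 in male KO, with 144 and 119 in female WT against 219 and 197 in female KO, so that every KO library exceeded every WT library. This order was held by 2 of the 13 proteoglycans of the list and 1.68% of all tested genes. The Chad difference was 0.94 (SE 0.26, edgeR adjusted p = 0.613), and the part of the cartilage markers given above in it was not tested either. Ecm2 (0.67), Bgn (0.54) and Prelp (0.35) followed. Asporin (Aspn), osteomodulin (Omd), osteoglycin (Ogn) and epiphycan (Epyc), singled out after their values were seen, were higher in each of the 4 libraries above 10% mitochondrial counts than in each of the 4 below, as Dcn, Lum and Kera were. That made 4 of the 13 proteoglycans of the list (14.5% of all genes), and 2 of 13, Podnl1 and Tsku, had the opposite order (11.1%). Aspn, for example, had a mean of 1472 CPM above and 360 CPM below, and Omd one of 687 and 142 CPM. Of the collagens 2 of 11 were higher and 4 of 11 lower in all libraries above 10%, and of the matrix genes 2 and 2 of 22.

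Among collagens, Col12a1, a fibril-associated collagen of tendon and ligament, had the smallest p over both sexes (0.66, SE 0.22, edgeR adjusted p = 0.644), followed by Col6a3 (0.49), Col14a1 (0.46) and Col1a2 (1.00, SE 0.54). In males Col1a2 differed by 1.96 (SE 0.61), with an adjusted p of 0.262 in edgeR and 0.00354 in DESeq2. Of the matrix genes, Ccn2, a matricellular protein induced by TGF-beta and by stretch, stood at 215 and 196 CPM in male WT against 293 and 626 in male KO, with 113 and 85.3 in female WT against 240.4 and 170 in female KO. Both KO libraries exceeded both WT libraries within each sex, as for 19.7% of all tested genes in males and 25.9% in females. The Ccn2 difference over both sexes was 1.10 (SE 0.27), with an adjusted p of 0.526 in edgeR and 0.0153 in DESeq2. Lubricin (Prg4) differed by 0.83 (SE 0.24) over both sexes and by 1.29 in females, where its DESeq2 adjusted p was 0.00874, and Loxl3 (0.63) and Lox (0.56), lysyl oxidases that crosslink collagen, came next.

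Among signals the values were smaller and mixed. The TGF-beta receptor gene Tgfbr1 (0.48), Tgfb2 (0.37) and the mechanically induced factor Egr1 (0.49) had positive values over both sexes, and Gdf5, a joint growth factor, had -0.63 (SE 0.28). Egr1 gave 22.6 and 15.8 CPM in male WT against 49.2 and 36.7 in male KO. In females Egr1 overlapped, with 23.2 and 31.3 in WT against 25.2 and 23.0 in KO. Gdf5 overlapped in males, with 3.01 and 2.61 CPM in WT against 3.18 and 2.04 in KO. Female WT had Gdf5 at 5.20 and 5.49 CPM against 2.29 and 2.52 in female KO. Of the homologs, thrombospondin 1 (Thbs1) had the smallest p. Thbs1 gave 179 and 188 CPM in male WT against 420 and 386 in male KO, with 210 and 120.2 in female WT against 264 and 369 in female KO. Every KO library exceeded every WT library, as for 2 of the 11 homologs and 1.68% of all tested genes. The Thbs1 difference was 1.04 (SE 0.23), with an adjusted p of 0.510 in edgeR and 0.00469 in DESeq2, beside 0.57 for Thbs2, 0.61 for Thbs3 and the 0.61 of Thbs4. Itgb1, an integrin beta chain, had 0.45 (SE 0.29).

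Markers of other cell types that share these genes were read in the same libraries. The summed level of 6 markers of loose connective tissue fibroblasts, which also make Dcn and Lum, was 322 to 550.1 CPM in WT and 453 to 619.95 CPM in KO. Osteoblast markers summed to 524 to 1185 CPM in WT and 762 to 1389 CPM in KO, meningeal markers to 254 to 459 and 301.2 to 431, neuronal markers to 689 to 1495 and 796 to 1131, epidermal markers to 8.84 to 20.7 and 9.02 to 13.2, and notochord markers, of which Noto was at 0 in every library, to 47.2 to 83.3 and 48.5 to 92.4. These ranges overlap between the genotypes. The osteoblast sum was mostly Ibsp (346 to 1090 CPM). Adipocyte markers did not overlap, with 4990 and 4803 CPM in male WT replicate 1 and female WT replicate 2. Without those 2 libraries the male median of the members was 0.65, the female median 0.45 and that over both sexes 0.50. Over both sexes 10 of 10 were still positive, beside 50.9% of all tested genes. There 0 members in place of 3 had an edgeR unadjusted p under 0.05. Fewer genes of any kind did, 1.65% higher and 1.29% lower in place of 2.84% and 3.99%. The median of the interaction turned from 0.42 to -0.21, and Scx had 0.27 in males and -0.03 in females. The part of the cell mixture in the values above was not tested.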

How the data were processed

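RNA of crushed frozen spines was taken up in TRIzol and turned into stranded mRNA libraries, per the labels' protocols. The authors deposited whole-number read counts per gene, not normalized, for 8 libraries (2 in each of 4 groups, taken from the titles). FastQC 1.0.0, MultiQC 1.0.0, HISAT2, featureCounts and mm10 are named in the submitters' processing notes. What annotation and strand setting were used, and how reads with several matches were treated, is not given in the sources used here. Every column of values was matched to a sample.

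Entrez IDs took symbols from RefSeq (25275) or GENCODE M21 (18), and 1886 of 27179 genes had none. The members and lists were chosen with earlier results of these data known. Named were all 10 members, up to 4 genes of each list with the smallest p over both sexes, and the 5 genes most like the members' mean.

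Genes were filtered with filterByExpr (minimum count 10), normalised by TMM and tested with edgeR 4.0.16 (R 4.3.3), two-sided, in 2 quasi-likelihood fits to all 8 libraries. Group means (4, with 4 residual degrees of freedom) yielded the effects within a sex, their difference and the sex difference in WT. Additive terms for sex and genotype, leaving 5 residual degrees of freedom, yielded the effect over both. SE is the log2 difference divided by the square root of F. Intervals are 95%. Correlations used log2 CPM with a prior count of 2. The biological coefficient of variation was 27.8% in the fit of group means and 31.1% in the additive fit. Alternatives were DESeq2 1.42.0, limma 3.58.1 (voom), other scaling, no filter, thinning to equal depth, a replicate block, a mitochondrial covariate or no mitochondrial genes, males or females alone, and leaving out libraries. The scripts were tested on simulated data. The 2 libraries of each group were not copies of each other (chi-square of their counts 138 to 678 per degree of freedom) and stayed separate samples.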

Additional observations from a re-analysis of the deposited data

Results flagged for a closer look

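The KO effect on Itgbl1 differed between the sexes by 1.57 on the log2 scale (female minus male). Both male KO libraries lay below both male WT libraries, at 22.7 and 29.4 against 30.7 and 32.8 CPM, and both female KO libraries lay above both female WT libraries, at 31.6 and 24.4 against 12.5 and 10.6 CPM. The test of the difference itself gave an adjusted p of 0.243 in edgeR and 0.0229 in DESeq2, so the tools part at the threshold. The male effect was 0.03 in place of -0.29 once mitochondrial share entered the fit. With each library left out in turn the difference between the sexes ran from 1.37 to 1.76. That range does not part sex from mitochondrial share. Both male WT libraries had over 10% mitochondrial counts and both female WT libraries under 10%, so the 2 cannot be told apart within WT.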

How the results depend on the processing

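Counts of members past the threshold were 0 throughout, except in DESeq2 (1 in females, 1 for the interaction and 2 for the WT sex difference), without the low-count filter (1 for the WT sex difference, Itgbl1) and, for the WT sex difference, between 0 and 2 with 1 library left out, 2 being reached without male KO replicate 1 or 2. These rises were not particular to the members: edgeR then called 9.45% and 9.1% of all genes, and 2.77% without the filter, against 0.00552%. The cause was not tested. The members' median with 1 library left out ran in males from -0.48 (without male KO replicate 2) to 0.59, in females from 0.39 to 0.96, and over both sexes from 0.35 to 0.64. Replicate numbers did not pair the samples (same-number correlations -0.45 to 0.26). A replicate block called 0 members and left the medians at 0.37, 0.67 and 0.47, and thinning to the shallowest library gave 0.32, 0.68 and 0.46. Medians moved more in voom (0.098 in males) and with the mitochondrial covariate (0.67 in males, 0.44 in females, and 0.19 in place of -0.82 for the WT sex difference). Without the filter edgeR called 39 genes in males, where it otherwise called 0, and DESeq2 called 481, 144 and 141 genes in males, in females and over both. With DESeq2's size factors the genes at an unadjusted p under 0.05 in males split 1560 higher to 1143 lower, against 1364 to 1320.

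Of 180 alternative values in males 23 turned sign, of 180 in females 3, and of 200 over both 10. In males these were Scx (0.27 without the adipocyte-rich WT libraries), Dcn (-0.073 in voom), and Lum (0.45), Itgbl1 (0.031) and Mkx (0.52) with the mitochondrial covariate. Mkx, at -0.01, also became 0.020 with DESeq2 or its size factors, 0.0060 without the filter, 0.0077 without the adipocyte-rich libraries, and 0.038 without mitochondrial genes or in males alone. Scx became -0.029 in females without the adipocyte-rich libraries and, over both sexes, -0.015 after thinning and -0.18 below 10% mitochondrial counts. Above 10%, Lum became -0.15 and Itgbl1 -0.014. For the interaction the mitochondrial covariate gave -0.12 for Mkx, -1.12 for Tnmd, 0.67 for Fmod, -0.48 for Dcn and -0.93 for Kera, and leaving out the adipocyte-rich libraries gave -0.29 for Scx, -0.56 for Tnmd and -0.13 for Kera. For the WT sex difference the covariate gave 0.17 for Mkx, 0.72 for Tnmd, -0.76 for Fmod, 0.20 for Dcn, 0.36 for Kera and 0.035 for Cilp, and leaving out those libraries gave 0.050 for Cilp.

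With 1 library left out, signs turned in males for Scx (-0.32 to 0.21), Mkx (-0.49 to 0.35), Tnmd (-0.70 to 1.43), Dcn (-0.94 to 0.65), Lum (-1.76 to 0.082) and Kera (-1.003 to 1.30), in females for Scx (-0.19 to 0.38), and over both for Scx (-0.12 to 0.16) and Lum (-0.14 to 0.69). They also turned for the interaction of Scx (-0.11 to 0.45), Tnmd (-0.52 to 1.60), Fmod (-0.57 to 0.33) and Kera (-0.077 to 2.53) and for the WT sex difference of Scx (-0.064 to 0.47), Thbs4 (-0.37 to 0.66) and Fmod (-0.17 to 0.41). Where a group is left with 1 library, it is assumed to vary like the others.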
